A study of Mus musculus with 6 samples.

Results

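Skeletal muscle genes were measured here in epidermis, a tissue that is not known to build sarcomeres. The set holds 39 genes of the sarcomere, of calcium handling and of muscle metabolism, and all 39 were found by symbol among the 30386 genes of the table. The libraries come from back skin epidermis of E18.5 mouse embryos, separated from the dermis with Dispase, with 3 wild-type (WT) libraries and 3 of the genotype p63alphaKO, a loss of the alpha isoforms of the transcription factor p63 by its label. Not given in the sources used here were how the allele was made, in which cells it acts and whether the libraries of a group came from separate embryos, so p-values measure only the spread between these libraries. Libraries were counted from 3' tags of mRNA, and levels are in CPM, the reads of a gene scaled to a common library total, with SD over n = 3 libraries per genotype.

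A sarcomere is the contractile unit of striated muscle. Thick filaments of myosin pull on thin filaments of actin, troponin and tropomyosin, which are anchored at Z-discs and kept in register by the giant proteins titin and nebulin, and calcium released from the sarcoplasmic reticulum switches the pull on. Muscle changes its isoforms as it matures: embryonic and perinatal fibres make the myosins of Myh3 and Myh8 and the cardiac actin of Actc1, and adult fast fibres make those of Myh1, Myh2 and Myh4 and the skeletal actin of Acta1. In mouse back skin a thin sheet of skeletal muscle, the panniculus carnosus, lies below the dermis.

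The libraries held between 2564407 and 4474764 reads, so that 3 reads were worth between 0.670 and 1.17 CPM. The 10 epidermal markers were present in each library and summed to between 106228 and 115474 CPM. Trp63 averaged 74.3 ± 11.9 CPM over the WT libraries and 142 ± 5.15 CPM over those of p63alphaKO (log2 fold change 0.93, adjusted p = 0.0192 by limma), and a count per gene cannot tell its isoforms apart. Its call was lost without each p63alphaKO library in turn. WT replicate 2 stood apart: 72 genes were over 2 log2 units above every other library there, against 54 in WT replicate 1, 13 in WT replicate 3 and between 3 and 5 in the p63alphaKO libraries, and 15 of the 72 were members. Results are therefore given with and without WT replicate 2.

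The fast myosin heavy chain genes lie side by side on chromosome 11, and the balance between Myh4 and the developmental genes Myh3 and Myh8 differed sharply among libraries. The 250 bases before the start of these 3 genes, on the plus strand of GRCm38.p6 as given by RefSeq, are shown because the results turn on these genes. The regions are chr11:67078050-67078299 for Myh3, chr11:67237562-67237811 for Myh4 and chr11:67276874-67277123 for Myh8. Capitals mark matches on either strand to CAGCTG (a form of the E-box that myogenic factors bind), to the TATA box letters TATAAA and to the MEF2 consensus.
Myh3: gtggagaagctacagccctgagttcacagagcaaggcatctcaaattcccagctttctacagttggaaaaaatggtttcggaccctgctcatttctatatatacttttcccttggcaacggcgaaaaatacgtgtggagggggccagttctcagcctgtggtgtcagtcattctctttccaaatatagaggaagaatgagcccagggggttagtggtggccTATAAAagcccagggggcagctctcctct
Myh4: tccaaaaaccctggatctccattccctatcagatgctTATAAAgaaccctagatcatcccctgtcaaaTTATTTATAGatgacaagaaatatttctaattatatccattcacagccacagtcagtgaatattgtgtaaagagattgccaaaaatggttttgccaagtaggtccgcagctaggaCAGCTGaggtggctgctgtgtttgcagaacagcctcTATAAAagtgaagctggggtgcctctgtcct
Myh8: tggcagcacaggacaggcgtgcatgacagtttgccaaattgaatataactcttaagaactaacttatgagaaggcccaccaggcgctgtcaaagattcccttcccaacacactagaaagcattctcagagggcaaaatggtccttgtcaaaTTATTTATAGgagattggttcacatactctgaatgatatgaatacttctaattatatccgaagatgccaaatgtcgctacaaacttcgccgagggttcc
Myh4 and Myh8 carried the same 10 letters at their MEF2 match, starting 182 and 99 bases before the start, and a TATAAA match on the other strand lies inside each. Myh3 and Myh4 had a TATAAA 29 and 31 bases before the start. No CAGCTG stood in these windows of Myh3 and Myh8, and Myh4 had 1 such match, 67 bases before the start.

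Promoters were in the RefSeq table for 32 of the 39 members, with 37 start sites. CAGCTG was found in 16 of these 37 windows, against 13.0% of all 32851 windows of the same length. These windows belong to 14 of the 32 genes, and overlapping windows of Tnni1, and of Mb, hold the same match. TATAAA was found in 7 of the 37 windows, against 12.4%, and the MEF2 consensus in 6 (those of Casq2, Myh1, Myh4, Myh8, Pvalb and Ttn), against 2.92%. These are matches of letters, and binding was not measured.

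Reads of the 39 members were rarer in every p63alphaKO library than in every WT library. They made up 0.0771%, 0.530% and 0.0769% of all reads in WT replicates 1, 2 and 3, and 0.0122%, 0.0210% and 0.0215% in p63alphaKO replicates 1, 2 and 3. The 95% Wilson intervals ran from 0.0739% to 0.0800% in WT replicate 3 and from 0.0200% to 0.0232% in p63alphaKO replicate 3, and they cover counting error only. WT replicates 1 and 3 were nearly level, while WT replicate 2 was far above both. The summed level was 2279 ± 2614 CPM in WT and 183 ± 52.3 CPM in p63alphaKO, which is 12.5-fold lower, and 4.21-fold lower when WT replicate 2 was left out. As background, high Myh4 without Myh8, Myl4 and Myog is the make-up of adult fast muscle and unlike muscle of the labelled age. Whether the muscle reads of WT replicate 2 came from skin of that age was not tested, and each value with all 6 libraries includes them. In bulk tissue, fewer muscle cells and less muscle RNA per cell cannot be told apart.

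**Figure D1:**
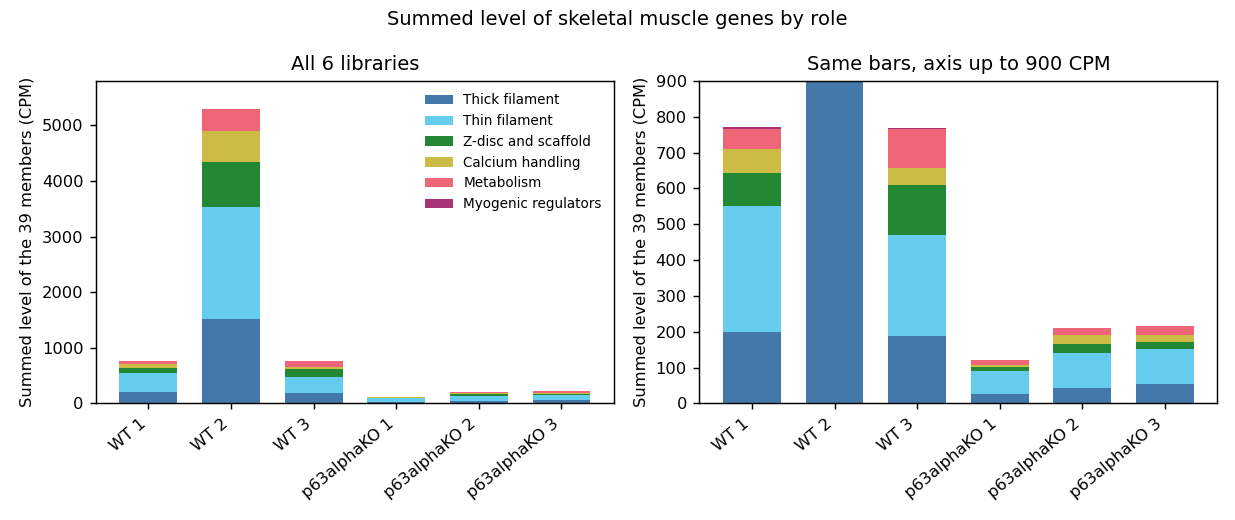
Summed level of the 39 members in CPM in each of the 6 libraries, with bar segments for the 6 roles; the right panel shows the same bars on a shortened axis, so the bar of WT replicate 2 runs past it. WT replicate 2 reached 5297 CPM, WT replicates 1 and 3 reached 770 and 768 CPM, and the p63alphaKO libraries lay between 122 and 215 CPM.

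The test was limma on log2(CPM + 1), run on the 7464 genes whose mean over the 6 libraries reached 10 CPM, with p-values adjusted over all of them by the Benjamini-Hochberg method and genes called at an adjusted p under 0.05. Of the 39 members 20 reached that mean, and 10 of these fell in p63alphaKO: Acta1, Car3, Mylpf, Myl1, Neb, Tnnc2, Tnnt3, Tpm2, Trdn and Ttn. None was called higher. Over all tested genes, 1.18% were called lower and 0.469% higher, and edgeR on the recovered reads called 7 of the members lower against 0.817% of the same genes. No tested member had a positive fold change, but 12 of the 20 passed the minimum through their WT level, which largely set their direction. The 8 that averaged at least 10 CPM within p63alphaKO alone all had negative values, against 59.8% negative among all tested genes. Every p63alphaKO library lay below every WT library for 21 of the 39 members, against 11.5% of the 16363 genes with a read.

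The minimum shaped which members could be tested. Of the 20, 8 averaged 10 CPM or more within p63alphaKO alone (Acta1, Mylpf, Myh4, Tnnc2, Tnni2, Tnnt3, Tpm2 and Ttn), and 6 of these 8 were called. The other 12 passed through their WT level and so had to differ. Atp2a1, Eno3, Pvalb, Pygm, Ryr1 and Trdn would not have reached 10 CPM without WT replicate 2. The median log2 fold change was -2.92 over the 20 tested members and -0.085 over all tested genes, given as a description only.

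Without WT replicate 2 the fold changes of the tested members were smaller, except for Actc1 and Myh8. Again 10 members were called lower, now of 14 tested, where 1.18% of all tested genes were. The count was also 10 over the 20 genes first tested, against 1.17% of all. Of the 14, the 8 with a p63alphaKO mean of 10 CPM or more gave 5 of the calls, and the 6 that passed through their WT level gave the other 5. The calls of Acta1, Car3, Mylpf, Myl1, Neb, Tnnc2, Tnnt3 and Ttn were shared by both fits, 8 in all. Actc1 and Myh8 were called only without WT replicate 2 and Tpm2 and Trdn only with it, and whether these fits differ was not tested. Leaving out a p63alphaKO library lowered the count, to 3 for replicate 1, 7 for replicate 2 and 4 for replicate 3. The share of all genes called lower fell with it, to 0.547%, 0.826% and 0.462%. Acta1 and Car3 were called whichever of the 6 libraries was left out. The calls of Myl1 and Neb were lost without p63alphaKO replicate 1, that of Tnnc2 without p63alphaKO replicate 1 or 3, and those of Tpm2 and Trdn without any 1 p63alphaKO library. With TMM scaling factors the count was 5, where 0.804% of all genes were called lower.

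**Figure D2:**
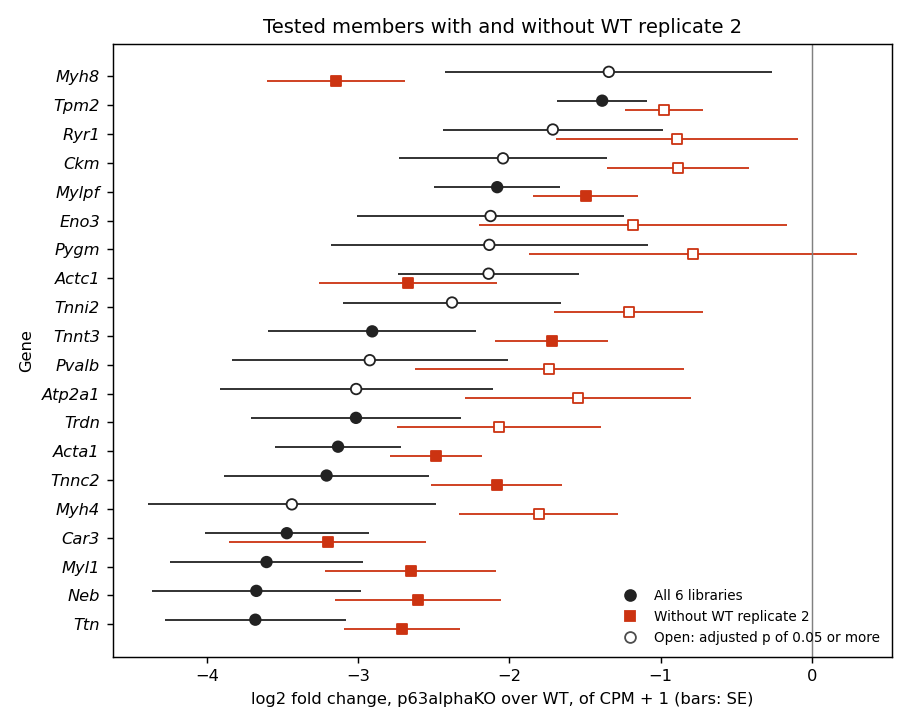
Log2 fold change (p63alphaKO over WT, of CPM + 1) of the 20 tested members with all 6 libraries (circles) and without WT replicate 2 over the same genes (squares), with bars for the SE and open symbols for an adjusted p of 0.05 or more. Leaving out WT replicate 2 moved Myh8 from -1.34 to -3.14 and Myh4 from -3.44 to -1.80.

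In the thick filament the light chain genes Myl1 and Mylpf fell, the third, Myl4, was too low to test, and in the heavy chains WT replicate 2 stood apart from the other WT libraries. Myl1, an alkali light chain of fast myosin, was at 20.3, 194 and 33.1 CPM in WT replicates 1 to 3 and at 1.98, 2.62 and 6.26 CPM in p63alphaKO replicates 1 to 3. Its log2 fold change was -3.61 (SE 0.64, adjusted p = 0.00989). Every p63alphaKO library was below every WT library, and the fold change was -2.65 without WT replicate 2 (adjusted p = 0.0330). Mylpf, the regulatory light chain of fast fibres (chromosome 7, 127208890 to 127214298, plus strand), was at 49.5, 175 and 52.9 CPM in WT and at 10.4, 20.97 and 24.2 CPM in p63alphaKO. It fell by 2.08 on the log2 scale (SE 0.42, adjusted p = 0.0201) and the groups did not overlap. The call was lost without p63alphaKO replicate 1 or 3.

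Myh4, the heavy chain of the fastest adult fibres (chromosome 11, 67238029 to 67260446), was at 52.6, 1057 and 22.4 CPM in WT and at 4.23, 9.03 and 18.8 CPM in p63alphaKO. WT replicate 3 stood only a little above p63alphaKO replicate 3, and WT replicate 2 held 93.4% of the summed WT level. The log2 fold change of -3.44 (SE 0.95) did not pass the test (adjusted p = 0.0786, and 0.108 without WT replicate 2). Myh8, the perinatal heavy chain (67277124 to 67308634 on the same strand), showed the reverse order among WT libraries. It was at 36.6, 0 and 46.9 CPM in WT and at 4.23, 5.24 and 2.39 CPM in p63alphaKO, and the 0 in WT replicate 2 allows up to 0.670 CPM. With all libraries its value was -1.34 (SE 1.08, adjusted p = 0.608), and without WT replicate 2 it fell by 3.14 (adjusted p = 0.00370).

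The other heavy chains were below the minimum and have no test. Myh3, the embryonic form, was at 10.9, 1.12 and 12.0 CPM in WT and at 0, 1.16 and 0 CPM in p63alphaKO, so WT replicate 2 lay among the p63alphaKO libraries. Myh1, a fast adult form, was at 7.40, 17.9 and 5.04 CPM in WT and at no more than 0.58 CPM in p63alphaKO, without overlap. Myh2 was at 5.84, 5.58 and 0.31 CPM in WT and at most 0.87 CPM in p63alphaKO, and the groups overlapped through WT replicate 3. Myh7, the slow and cardiac form, was listed at 0 in all 6 libraries. Myl4, an embryonic and atrial light chain, was at 5.07, 0 and 2.83 CPM in WT and at 0 in each p63alphaKO library.

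Of the myosin binding proteins, Mybpc1, the slow type, was at 9.35, 10.1 and 8.19 CPM in WT and at 3.39, 1.46 and 0.89 CPM in p63alphaKO. It was a member with nearly level WT libraries and no overlap, at 4.81-fold lower in p63alphaKO, but under the minimum for testing. Mybpc2, the fast type, was at 0.78, 48.7 and 3.46 CPM in WT, and its low WT libraries overlapped p63alphaKO at 0.85, 2.04 and 0 CPM.

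Within the heavy chain reads, WT replicate 2 was almost purely Myh4. Myh3 and Myh8 together made up 41.9% of the heavy chain reads in WT replicate 1 (122 of 291, Wilson interval 36.4% to 47.7%), 0.103% in WT replicate 2 (5 of 4843, 0.0441% to 0.241%) and 68.0% in WT replicate 3 (187 of 275, 62.3% to 73.2%). In p63alphaKO the share was 48.4%, 37.9% and 11.0% in replicates 1, 2 and 3, from 31, 58 and 73 reads. The p63alphaKO shares thus lay between those of the WT libraries, and the groups overlapped. The last 500 bases of coding transcripts of Myh1, Myh2, Myh4 and Myh8 share stretches of at least 30 bases, so some reads near these ends cannot be assigned to 1 gene. Of windows of 30 bases taken at every base, Myh4 and Myh8 shared 31 and Myh7 and Myh8 shared 5. Such windows overlap, so 1 longer stretch counts many times. Myh3 shared no such window with another member.

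**Figure D3:**
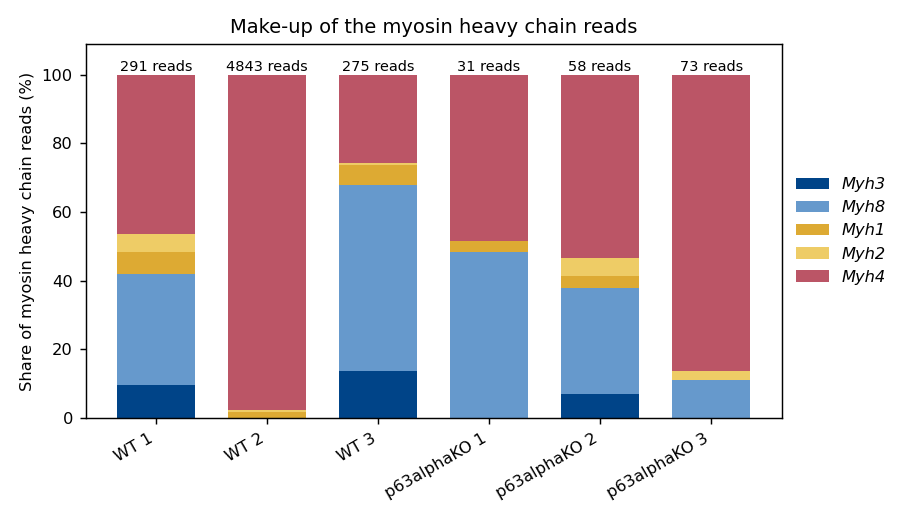
Share of the reads of 5 myosin heavy chain genes in each library, in percent, with the number of reads above each bar. Myh3 and Myh8 (blue) hold 41.9% and 68.0% in WT replicates 1 and 3 and 0.103% in WT replicate 2, where Myh4 (red) holds 97.7%.

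Thin filament genes gave the most calls of any role, 5 of 7 tested. Acta1, the skeletal muscle actin, was at 91.2, 323 and 76.2 CPM in WT and at 12.7, 19.2 and 11.3 CPM in p63alphaKO. It fell by 3.13 on the log2 scale (SE 0.41, adjusted p = 0.00124), and by 2.49 without WT replicate 2 (adjusted p = 0.00103). Each p63alphaKO library was well below the lowest WT library. Actc1, the cardiac actin that fetal skeletal muscle also makes, was at 25.7, 7.15 and 22.0 CPM in WT and at 5.93, 1.75 and 2.09 CPM in p63alphaKO. WT replicate 2 was here the lowest WT library and close to p63alphaKO replicate 1. The value of -2.14 did not pass the test (SE 0.60, adjusted p = 0.0819), while without WT replicate 2 Actc1 fell by 2.67 (adjusted p = 0.0389).

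Neb encodes nebulin, which runs along the thin filament. It was at 37.4, 300 and 26.4 CPM in WT and at 3.11, 2.33 and 10.1 CPM in p63alphaKO, and it fell by 3.67 (SE 0.69, adjusted p = 0.0151), and by 2.60 without WT replicate 2. The troponin complex is the calcium switch, with the subunits C, I and T. Tnnc2, fast troponin C, was at 54.9, 465 and 34.9 CPM in WT and at 5.08, 16.02 and 10.4 CPM in p63alphaKO, and it fell by 3.21 (SE 0.68, adjusted p = 0.0277). Tnnt3, fast troponin T (chromosome 7, 142498836 to 142516009, plus strand), was at 57.7, 519 and 32.1 CPM in WT and at 9.32, 11.1 and 18.2 CPM in p63alphaKO, and it fell by 2.91 (SE 0.69, adjusted p = 0.0480). Without WT replicate 2, Tnnc2 fell by 2.08 and Tnnt3 fell by 1.72. The groups did not overlap for these genes, and the Tnnt3 call was lost without any 1 p63alphaKO library or WT replicate 1. Tnni2, fast troponin I, was at 23.0, 275 and 23.6 CPM in WT and at 3.95, 14.3 and 14.3 CPM in p63alphaKO. Its value of -2.38 did not pass (SE 0.72, adjusted p = 0.108), and it was -1.21 without WT replicate 2.

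Tpm2, beta tropomyosin, is made in slow skeletal muscle and also in smooth muscle and other cells, and it kept the most of its level in p63alphaKO among the called members. It was at 53.0, 136 and 63.3 CPM in WT and at 25.1, 30.6 and 31.3 CPM in p63alphaKO, and it fell by 1.39 (SE 0.30, adjusted p = 0.0314). Without WT replicate 2 the value was -0.98 and did not pass (adjusted p = 0.0753). The slow troponins stayed under the minimum. Tnnc1, which the heart shares, was at 3.90, 0.22 and 4.09 CPM in WT and at 0 in each p63alphaKO library, Tnni1 was at no more than 1.79 CPM in any library, and Tnnt1 was at 6.62, 1.34 and 0.31 CPM in WT and at most 1.46 CPM in p63alphaKO. Against the floor of 3 reads over the p63alphaKO group, Tnnc1 was at least 8.08-fold lower there and Myl4 at least 7.41-fold lower.

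**Figure D4:**
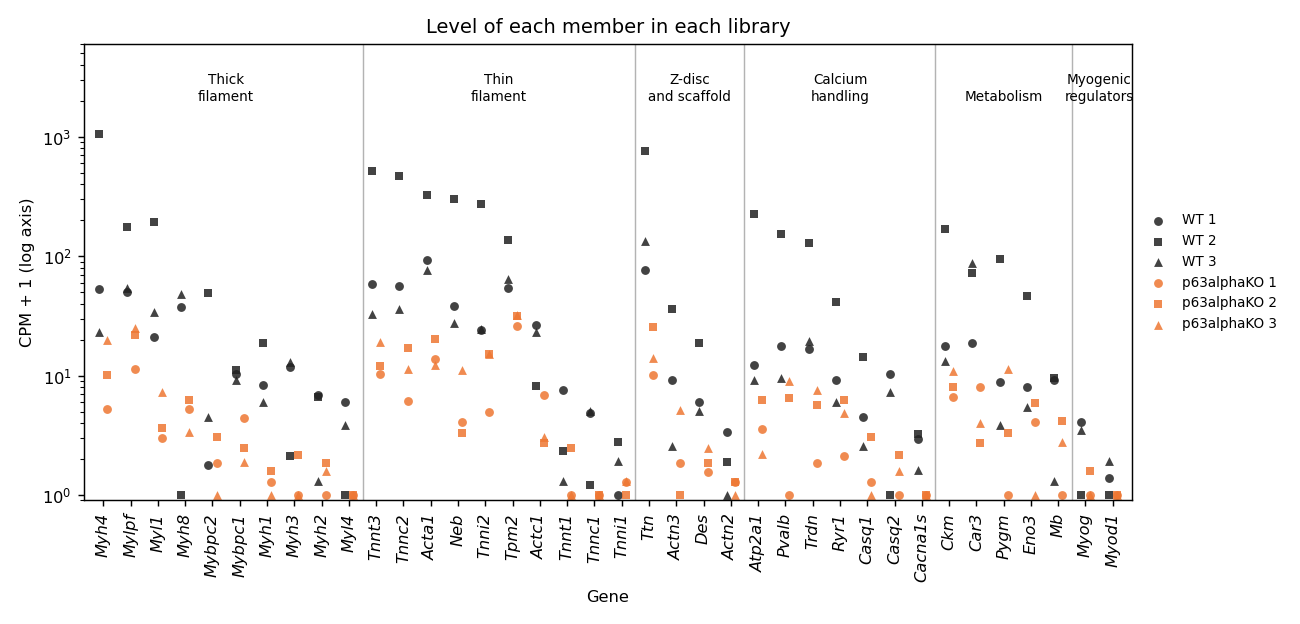
CPM + 1 on a log axis for the 38 members with a read, grouped by role, with WT libraries in black and p63alphaKO libraries in orange and a marker shape for each replicate number. WT replicate 2 (black squares) is highest for 26 of the 39 members and at 0 for Myh8, Myl4, Casq2, Myog and Myod1.

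At the Z-disc and in the scaffold, Ttn was the 1 tested member and it fell. Ttn encodes titin, the molecular spring from Z-disc to mid-sarcomere (chromosome 2, 76703980 to 76982547, minus strand). It was at 75.2, 756 and 132 CPM in WT and at 9.03, 24.8 and 13.1 CPM in p63alphaKO. It fell by 3.68 (SE 0.60, adjusted p = 0.00628), and it fell by 2.71 without WT replicate 2 (adjusted p = 0.00313). The lowest WT library was above the highest p63alphaKO library, and the call was lost without p63alphaKO replicate 3 (adjusted p = 0.0631). Des, the desmin that links Z-discs and is also made in smooth muscle, was at 5.07, 17.9 and 4.09 CPM in WT and at 0.56, 0.87 and 1.49 CPM in p63alphaKO. It was under the minimum, without overlap. Actn3, the actinin of fast fibres, was at 8.18, 34.8 and 1.57 CPM in WT and at 0.85, 0 and 4.18 CPM in p63alphaKO, so WT replicate 3 fell among the p63alphaKO values. Actn2, the actinin of all striated muscle, was at 2.34 CPM or less in every library.

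Of the 4 tested calcium genes, 1 was called, and their high WT means came mostly from WT replicate 2. Trdn, triadin, an anchor at the calcium release site, was at 15.6, 128 and 18.6 CPM in WT and at 0.85, 4.66 and 6.56 CPM in p63alphaKO. It fell by 3.01 (SE 0.70, adjusted p = 0.0448), and over the same genes without WT replicate 2 the adjusted p was 0.149. Atp2a1, the calcium pump of fast fibres, was at 11.3, 224 and 8.19 CPM in WT and at 2.54, 5.24 and 1.19 CPM in p63alphaKO. Pvalb, the calcium buffer parvalbumin, was at 16.8, 152 and 8.50 CPM in WT and at 0, 5.53 and 8.05 CPM in p63alphaKO. Both had groups that did not overlap, by a small margin for Pvalb, and values of -3.01 and -2.92 that did not pass (adjusted p = 0.105 and 0.118). Ryr1, the calcium release channel, was at 8.18, 40.2 and 5.04 CPM in WT and at 1.13, 5.24 and 3.88 CPM in p63alphaKO, with overlap (adjusted p = 0.269).

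The remaining calcium genes were low. Casq1, the calsequestrin of fast fibres, was at 3.51, 13.4 and 1.57 CPM in WT and at most 2.04 CPM in p63alphaKO. Casq2, the cardiac and slow type, followed the developmental myosins, at 9.35, 0 and 6.30 CPM in WT and at 0, 1.16 and 0.60 CPM in p63alphaKO. Cacna1s, the voltage sensor, was at 1.95, 2.23 and 0.63 CPM in WT and at 0 in each p63alphaKO library, which is at least 5.73-fold lower against the floor of 3 reads over the group.

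Among metabolic genes Car3 was the 1 called, of 4 tested. Car3 encodes a carbonic anhydrase of slow muscle that adipocytes make too (chromosome 3, 14863512 to 14872523, plus strand). It was at 17.9, 71.0 and 87.5 CPM in WT and at 7.06, 1.75 and 2.98 CPM in p63alphaKO, and it fell by 3.47 (SE 0.54, adjusted p = 0.00529). WT replicate 3 was highest here, unlike for the fast fibre genes, and it fell by 3.20 without WT replicate 2 (adjusted p = 0.0270). The 10 adipocyte markers summed to 196, 222 and 267 CPM in WT and to 156, 211 and 203 CPM in p63alphaKO, with overlap, and 2 of the 10 did not overlap between genotypes. Fabp4, an untested marker, was 5.03-fold lower in p63alphaKO, while Cebpa, which gave most of the sum and is also active in epidermis, differed by -0.12 on the log2 scale (adjusted p = 0.805 by limma). Their part in the Car3 result was not tested.

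The fast fibre enzymes were high in WT replicate 2 and did not pass the test. Ckm, muscle creatine kinase, was at 16.8, 170 and 12.3 CPM in WT and at 5.65, 6.99 and 9.84 CPM in p63alphaKO (log2 fold change -2.04, SE 0.69, adjusted p = 0.154). Pygm, muscle glycogen phosphorylase, was at 7.79, 94.5 and 2.83 CPM in WT and at 0, 2.33 and 10.4 CPM in p63alphaKO (adjusted p = 0.348). Eno3, the muscle enolase, was at 7.01, 45.8 and 4.41 CPM in WT and at 3.11, 4.95 and 0 CPM in p63alphaKO (adjusted p = 0.257). WT replicates 1 and 3 lay close to p63alphaKO for these genes: their mean was 1.94-fold, 1.25-fold and 2.13-fold that of p63alphaKO for Ckm, Pygm and Eno3. Mb, the oxygen store myoglobin, was at 8.18, 8.48 and 0.31 CPM in WT and at 0, 3.20 and 1.79 CPM in p63alphaKO, under the minimum and with overlap.

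The myogenic transcription factors were near the limit of detection. Myog, which drives myoblasts to differentiate, was at 3.12, 0 and 2.52 CPM in WT and at 0, 0.58 and 0 CPM in p63alphaKO. Myod1, which commits cells to muscle, was at 0.39, 0 and 0.94 CPM in WT and at 0 in each p63alphaKO library. Both were at 0 in WT replicate 2, the library with the most sarcomere reads.

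The share of the larger roles in the member reads varied less among libraries than the balance of isoforms within a role. Thick filament genes held between 20.8% and 28.5% of the member reads, thin filament genes between 37.0% and 53.6%, and Z-disc and scaffold genes between 8.73% and 17.9%. By contrast, Actc1 held 22.0%, 2.16% and 22.4% of the actin reads (Actc1 and Acta1) in WT replicates 1, 2 and 3, and 31.8%, 8.33% and 15.6% in p63alphaKO. Tnnc1 held 6.62%, 0.0480% and 10.5% of the troponin C reads in WT, and 0 of 18, 55 and 35 reads in p63alphaKO, which allows up to 16.7%, 5.45% and 8.57%. Mybpc1 held 92.3%, 17.1% and 70.3% of the reads of the pair with Mybpc2 in WT. WT replicates 1 and 3 resembled each other in each of these pairs, and of the 3 WT libraries WT replicate 2 had the lowest share of the slow or developmental form. The other troponin pairs did not follow this order. Tnnt1 held 10.3%, 0.258% and 0.971% of its pair with Tnnt3 in WT replicates 1, 2 and 3, so WT replicate 3 lay near WT replicate 2. Tnni1 held 0 of 59 reads, 0.645% and 3.85% of its pair with Tnni2, and its 0 in WT replicate 1 allows up to 5.08%. Across the 38 members with a read, Spearman's rho of levels was 0.894 between WT replicates 1 and 3 and between 0.648 and 0.795 for pairs with WT replicate 2. Pairs of p63alphaKO libraries gave 0.699 to 0.795, and their 433 to 722 member reads limit the precision.

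Other skeletal muscle genes were listed from textbook knowledge, as sarcomere, excitation, metabolism and myogenic genes. Of 113 symbols, 110 were in the table with 111 entries, of which 102 had a read and 17 reached the minimum. Of these 17, limma called 1 lower and 0 higher, against 1.18% and 0.469% of all tested genes. At an unadjusted p under 0.05 limma had 2 lower and 0 higher, and edgeR and DESeq2 each called 1 lower. The gene limma called was Mef2c, a factor that acts with the myogenic regulators and is also active in endothelium. It was at 21.4, 21.7 and 29.0 CPM in WT and at 5.93, 6.70 and 6.26 CPM in p63alphaKO (log2 fold change -1.77, adjusted p = 0.0192 by limma). It is named because it was the call, after its values were seen, and the call was lost without WT replicate 3 or any 1 p63alphaKO library. Most of the 111 entries were too low to test. Every p63alphaKO library lay below every WT library for 19 of the 102 with a read and above for 2. Over all 16363 genes with a read the counts were 1876 below and 804 above. WT replicate 2 was the highest library for 63 of the entries.

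The tested companion genes with the highest levels are mostly active outside muscle as well, and none of them was called. Tpm1, Tpm3, Pdlim5 and Tnnt2 of the sarcomere list had log2 fold changes of 0.38, -0.11, -0.39 and -0.003. Atp2a2 and Dmd, the slow calcium pump and dystrophin, had values of -0.050 and -0.86. Aldoa, Ldhb, Gys1 and Pfkm of the metabolic list had values of -0.16, 0.075, 0.50 and -0.52, and Mef2a and Mef2d values of -0.009 and 0.33. The muscle atrophy ligases Trim63 and Fbxo32 were at 86.9 and 56.7 CPM in WT replicate 2 and at no more than 2.83 and 12.5 CPM in any other library. The adjusted p of these genes by limma lay between 0.295 for Pdlim5 and 0.999 for Tnnt2.

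Summed markers of fibroblasts, endothelium, red cells and immune cells were also lower in p63alphaKO, in a different order among WT libraries. The summed markers of nerve and of fat overlapped, but single genes weighed heavily in the immune, nerve and fat sums. The 15 fibroblast and dermis markers summed to 5517, 2493 and 3903 CPM in WT and to 564, 853 and 467 CPM in p63alphaKO, and 10 of 13 tested were called lower by limma and 8 by edgeR. Col1a1 and Col1a2, the chains of the main dermal collagen, fell by 4.11 and 3.70 and were called with every library left out in turn. The 9 endothelial markers summed to 65.5, 31.5 and 23.9 CPM in WT and to between 4.48 and 8.44 CPM in p63alphaKO, and none reached the minimum for testing. The 9 erythroid markers summed to between 1903 and 3441 CPM in WT and between 559 and 1769 CPM in p63alphaKO. Of the 4 tested, limma called 3 lower, and edgeR and DESeq2 called 0. The 10 immune markers summed to 82.6, 45.3 and 61.7 CPM in WT and to 17.8, 28.8 and 15.2 CPM in p63alphaKO. The 1 tested, Cpa3, was called lower by limma, edgeR and DESeq2. It was at 51.4, 22.3 and 23.6 CPM in WT and at 1.13, 2.33 and 0 CPM in p63alphaKO, so much of the difference in the immune sum was Cpa3. Only 3 of the 10 immune markers were lower without overlap, against 11.5% of all genes with a read, and Csf1r overlapped. The 8 nerve and Schwann cell markers summed to 209, 169 and 170 CPM in WT and to 141, 196 and 170 CPM in p63alphaKO, and none of the 3 tested was called by limma, edgeR or DESeq2, with 1 lower and 0 higher at an unadjusted p under 0.05. WT replicate 2 was the lowest WT library for fibroblast and erythroid markers and the highest for muscle.

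Set against the fibroblast and dermis markers, the muscle members were lower in p63alphaKO than in WT replicate 2 only. The members' sum per unit of that list was 0.140, 2.13 and 0.197 in WT replicates 1, 2 and 3 and 0.217, 0.247 and 0.461 in p63alphaKO replicates 1, 2 and 3. Each p63alphaKO ratio was above those of WT replicates 1 and 3 and below that of WT replicate 2. Per unit of the erythroid markers the ratio was 0.224, 2.78 and 0.303 in WT and 0.219, 0.247 and 0.122 in p63alphaKO. Against the smooth muscle and pericyte markers the members stayed lower in every p63alphaKO library. That ratio was 10.04, 108 and 11.6 in WT and 3.14, 5.51 and 4.78 in p63alphaKO. For the adipocyte markers the ratio was also lower, at 3.93, 23.8 and 2.88 against 0.782, 0.999 and 1.06. Most of the adipocyte sum was Cebpa, which is also active in epidermis, so this ratio cannot show how the members compare with fat. A ratio without Cebpa was not tested. Per unit of the endothelial markers the ratio was 11.8, 168 and 32.1 in WT and 24.1, 24.9 and 48.1 in p63alphaKO, with overlap. The part that these other tissues have in the muscle result was not tested.

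Markers of the other muscle types were low. The 9 cardiac markers summed to 28.7 ± 4.82 CPM in WT and 26.2 ± 11.7 CPM in p63alphaKO, of which Tnnt2 gave most. The 11 smooth muscle and pericyte markers summed to between 48.9 and 76.8 CPM in WT and between 38.1 and 45.0 CPM in p63alphaKO. Neither list had WT replicate 2 far above the rest.

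**Figure D5:**
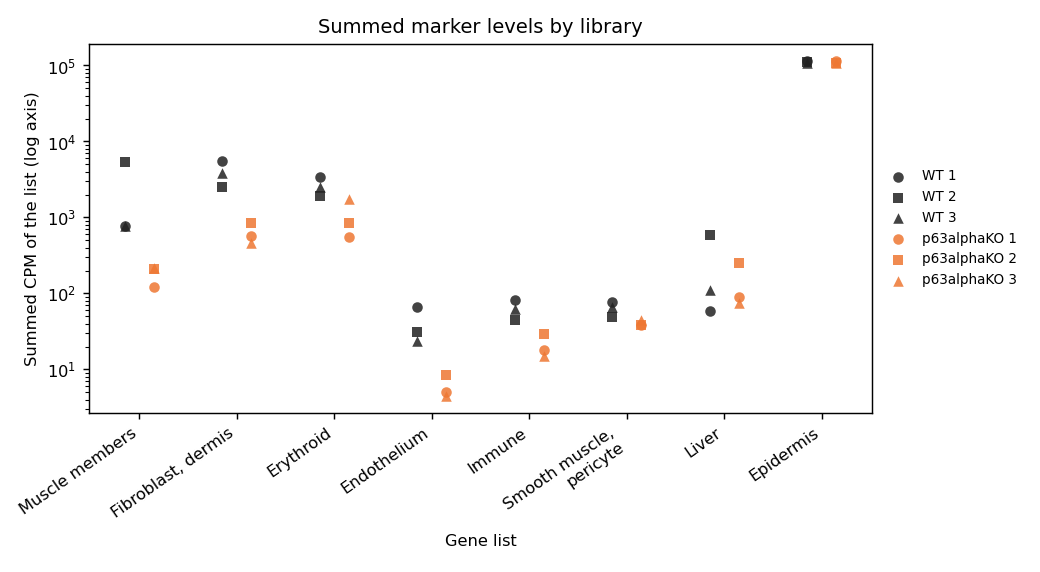
Summed CPM on a log axis of the muscle members and of marker lists of other tissues, with WT libraries in black, p63alphaKO libraries in orange and a marker shape for each replicate number. WT replicate 2 (black squares) is highest for muscle (5297 CPM) and liver (594 CPM), while fibroblast markers are highest in WT replicate 1 (5517 CPM) and the epidermal sums lie together.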

How the data were processed

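The members and gene lists were chosen with earlier results of these data known. RNA of 6 epidermis libraries was read by 3' digital mRNA sequencing, and 3' tags do not scale with transcript length. Per the submitters' processing notes, STAR and HTSeq were used with mm10. Tool versions and any use of strand in counting were not given in the sources used here. Although its name speaks of normalized counts, the file the authors deposited holds CPM. Within a tolerance of 0.0055 CPM 100% of values were whole reads, which gave 2564407, 4474764 and 3174444 reads in WT replicates 1 to 3 and 3539604, 3431580 and 3350442 in p63alphaKO replicates 1 to 3.

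Genotypes were compared with limma-trend (limma 3.58.1, R 4.3.3), two-sided, with genotype as the only term, a pseudocount of 1 and a minimum mean of 10 CPM. The steps were also run on simulated data with the same dispersion for every gene and no library standing apart. These data differ from that in WT replicate 2, so the run does not vouch for the calls here. With 3 libraries against 3, an exact permutation test cannot go below p = 0.1. Alternatives were other pseudocounts, minimums and scalings, a replicate block, leaving out each library, and edgeR 4.0.16 and DESeq2 1.42.0 on the recovered reads. edgeR called 82 of the 7464 genes, 61 lower (0.817%), among them 7 members. Limma array weights, and leaving out WT replicate 2 over unchanged genes, were added after seeing the data, as was the liver list.

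The naming rule took all members, the 4 tested genes of each companion list with the highest mean, and from each list of another cell type the 2 highest. Of the last, only those a result turns on are printed. Positions are from GENCODE mouse release 21 (GRCm38, the build of mm10), which held 30271 of the 30386 gene IDs. Exons of Neb, Ttn, Tnnc2, Atp2a1, Ckm, Ryr1, Des, Mb, Myh1, Myh2, Myl4, Mybpc1, Mybpc2, Casq1, Cacna1s and Myh7 overlap a gene on the other strand, so reads of both genes may be mixed unless strand was used in counting.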

Additional observations from a re-analysis of the deposited data

How the results depend on the processing

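All values of tested members kept a negative sign under the alternatives run. The count of 10 members called lower became 2 with a minimum mean of 50 CPM (9 tested), 5 with TMM factors and 6 with quantile normalization. The shares of all genes called lower were 0.798%, 0.804% and 0.884% there. With 1 library left out the count ranged from 3 (without p63alphaKO replicate 1, 0.547% of all genes) to 15 (without WT replicate 3, 1.17%). It was 7 with edgeR (0.817% of all genes) and with no filter (0.513%, with 38 members tested). DESeq2 called 11 lower, gave 17 of the 20 an adjusted p and called 2.21% of all genes lower. No member was called higher in any of these settings. The summed share, at a log2 ratio of -3.64, lay between -4.05 and -2.08 with 1 library left out, the last without WT replicate 2. TMM and upper quartile factors gave -3.54 and -3.56. The median log2 fold change ranged from -3.43 to -2.29 with 1 library left out, and over unchanged genes without WT replicate 2 it was -1.77.

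The replicate numbers did not pair the libraries: deviations of same-numbered libraries correlated at -0.0234, 0.0660 and -0.108. With a replicate block 14 members were called lower, where 1.15% of all genes were, and the median was -2.92. With array weights 15 were called lower, with 2.40% of all genes, and these weights favoured WT replicate 2 (1.265) over WT replicates 1 (0.574) and 3 (0.616). Of 7464 genes, limma called 123 and edgeR 82.

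Some uncalled companion genes changed sign. Tnnt2 was at 0.014 with a pseudocount of 5, 0.075 with TMM, 0.041 with upper quartile, 0.15 with quantile normalization, 0.24 with edgeR and 0.26 with DESeq2. Atp2a2 was at 0.031 with TMM, 0.016 with edgeR, 0.030 with DESeq2 and 0.11 without WT replicate 2, and Mef2a at 0.072 with TMM, 0.037 with upper quartile, 0.076 with edgeR, 0.089 with DESeq2 and 0.087 without WT replicate 2. Trim63 went from -1.64 to 0.11 over unchanged genes without WT replicate 2. With 1 library left out, values ran from -0.44 to 0.41 for Tnnt2, from -0.18 to 0.11 for Atp2a2, from -0.16 to 0.097 for Mef2a, from -0.15 to 0.24 for Ldhb and from -0.069 to 0.91 for Tpm1. The cause was not tested. Depth limited the p63alphaKO values, which rest on 433 to 722 member reads a library.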

Other observations

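WT replicate 2 also held reads of liver genes, looked up after its values were seen. The 23 genes of a liver list summed to 58.5, 594 and 110 CPM in WT replicates 1, 2 and 3 and to 88.9, 250 and 74.9 CPM in p63alphaKO replicates 1, 2 and 3, and 20 of the 23 were highest in WT replicate 2. Apoc1 made up most of the sum in the other libraries but p63alphaKO replicate 2. Alb, serum albumin, was at 0.78, 140 and 0 CPM in WT and at 0, 55.9 and 3.88 CPM in p63alphaKO. Mup3, a major urinary protein gene known from adult liver, was at 25.7 CPM in WT replicate 2, 11.4 CPM in p63alphaKO replicate 2 and 1.98 CPM in p63alphaKO replicate 1, and at 0 in the rest. Afp, the albumin relative that fetal liver makes in large amounts, was at 0 in all 6 libraries, which allows up to 0.670 CPM in WT replicate 2. The ages and tissues behind these reads were not tested.

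The liver sum and the member sum did not move together in p63alphaKO. p63alphaKO replicate 2 had a higher liver sum than the other p63alphaKO libraries, while its member sum of 210 CPM lay beside that of p63alphaKO replicate 3, at 215 CPM.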
